A study of Mus musculus with 2 samples.

Results

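The genes described here encode 10 secreted T cell cytokines: Ifng, Il2, Il4, Il5, Il13, Il9, Il3, Csf2, Il10 and Il21. They were selected by gene symbol from the 46511 gene rows of each deposited file, and each symbol matched 1 row per file. The study sequenced poly(A) RNA of effector regulatory T cells (Treg cells) from Nrn1-/- mice and from Nrn1+/- mice, with 1 library per genotype. Both groups were C57BL/6 mice that carried the Foxp3DTRgfp allele, a reporter that places green fluorescent protein under Foxp3, and both were sorted as CD4+CD25+Cd62LlowCD44highFoxp3gfp+ cells. The Nrn1+/- library is titled as wild type, but its genotype label is heterozygous, so the contrast is null against heterozygous. The sources used here do not give the age of the mice or how many were pooled for each library.

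Treg cells restrain other immune cells, and IL-10 is one of the secreted products through which they do so. Helper T cells make the other cytokines in characteristic groups: interferon gamma in type 1 responses, and IL-4, IL-5 and IL-13 in type 2 responses. Foxp3, the factor that defines Treg cells, is known to repress Il2, so Treg cells depend on IL-2 from other cells. These genes are induced by antigen receptor signals through NFAT and AP-1 factors, and their messages are short-lived because of AU-rich elements in the 3′ untranslated region (3′ UTR).

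Levels are in FPKM, a measure that divides the fragments of a gene by transcript length and by sequencing depth. With 1 library per genotype there is no replicate check, so no p-value is given and every difference is a difference between these 2 libraries. The spacing of low values put 1 fragment on 1 kb at 0.0251 FPKM in Nrn1-/- cells against 0.019 FPKM in Nrn1+/- cells, and from these steps a fragment number was estimated for each gene. Folds of single genes are plain FPKM ratios, while log2 ratios and calls at 1.5-fold or 2-fold were made after adding 1 FPKM to both values. The 95% intervals below come from those numbers and cover counting error only. Nrn1, the targeted gene, stood at 4.62 FPKM in Nrn1-/- cells against 66.5 FPKM in Nrn1+/- cells, 14.4-fold lower in the library labelled null. The 6 Treg markers (Foxp3, Il2ra, Ctla4, Ikzf2, Tnfrsf18 and Lrrc32) were all present, at 54.4 to 564 FPKM in the Nrn1-/- library and 72.8 to 608 FPKM in the Nrn1+/- library. Mast cell and basophil markers were listed at 0 for 7 of 8 genes in Nrn1-/- cells against 4 of 8 in Nrn1+/- cells. Their summed level was 0.618 FPKM in Nrn1-/- cells against 0.331 FPKM in Nrn1+/- cells. The Nrn1-/- sum was the marker Hdc alone, which had 0.153 FPKM in Nrn1+/- cells. Fcer1a, Ms4a2 and Cpa3 were above 0 only in Nrn1+/- cells.

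All 10 cytokine genes were detected in both libraries, at levels that spanned a wide range. In the Nrn1-/- library the order was Il10, Il2, Ifng, Il13, Csf2, Il3, Il4, Il9, Il5 and Il21, running down from 68.7 FPKM for Il10 to 2.31 FPKM for Il21. In the Nrn1+/- library the order was Il10, Il2, Ifng, Il13, Il4, Csf2, Il3, Il5, Il21 and Il9, running down from 94.0 FPKM for Il10 to 2.51 FPKM for Il9. The 4 highest genes kept their order, while Il9 stood at rank 8 in the Nrn1-/- library and was last, at rank 10, in the Nrn1+/- library. Neighbours whose counting intervals overlapped were Csf2 with Il3 and Il3 with Il4 in Nrn1-/- cells, and Il4 with Csf2, Il5 with Il21 and Il21 with Il9 in the Nrn1+/- library. All other neighbours in either order had separate intervals when the longest transcript of each gene was used. For the shorter Ifng transcript, the Nrn1-/- interval of 49.5 to 60.7 FPKM overlapped that of Il2, 59.9 to 65.0 FPKM. The 10 genes summed to 267 FPKM in Nrn1-/- cells against 224 FPKM in Nrn1+/- cells, and Il10 and Il21 made up 26.6% of the sum in Nrn1-/- cells against 43.2% in Nrn1+/- cells. In bulk RNA, fewer cells that make a cytokine and less of its RNA per cell cannot be told apart.

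**Figure D1:**
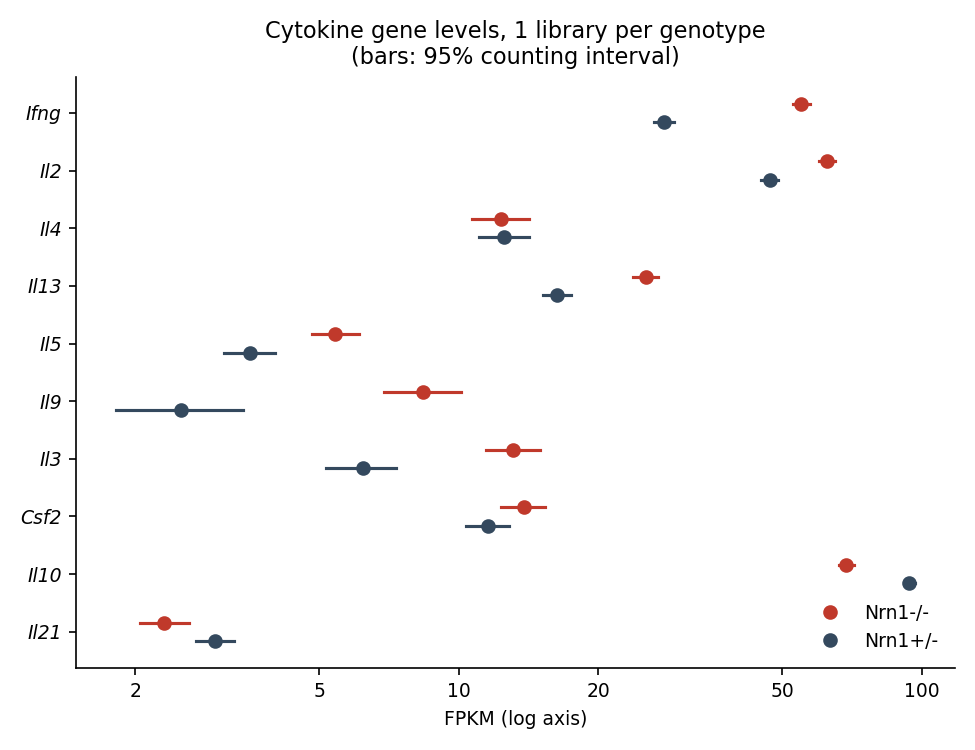
FPKM (log axis) of each cytokine gene in the Nrn1-/- library (red, upper point) and the Nrn1+/- library (dark, lower point), with bars for the 95% counting interval. The 2 points lie apart for Ifng (54.9 FPKM in Nrn1-/- cells against 27.7 FPKM in Nrn1+/- cells), Il9 (8.39 FPKM in Nrn1-/- cells against 2.51 FPKM in Nrn1+/- cells) and Il3 (13.1 FPKM in Nrn1-/- cells against 6.20 FPKM in Nrn1+/- cells), and coincide within their bars for Il4 (12.3 FPKM in Nrn1-/- cells against 12.5 FPKM in Nrn1+/- cells).

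The DNA just upstream of 5 of these genes is shown because 4 of them (Il9, Il3, Ifng and Il13) passed 1.5-fold upward in Nrn1-/- cells while Il4, which lies next to Il13, had an FPKM ratio of 0.984. Each line gives the 250 bases before the RefSeq start on GRCm38.p6, 5′ to 3′ on the gene's strand. Capitals mark letters searched on both strands, which were GGAAA for the core of NFAT sites, TGANTCA for AP-1, TTCNNNGAA for STAT factors, GGGANTTCC for NF-kB and GGTGTGA for T-box factors. The letters AGATAA were searched for Gata factors such as Gata3, and TATAAA was searched for the promoter box that positions the start of transcription.
Il9 promoter (chr13:56482258-56482507, minus strand): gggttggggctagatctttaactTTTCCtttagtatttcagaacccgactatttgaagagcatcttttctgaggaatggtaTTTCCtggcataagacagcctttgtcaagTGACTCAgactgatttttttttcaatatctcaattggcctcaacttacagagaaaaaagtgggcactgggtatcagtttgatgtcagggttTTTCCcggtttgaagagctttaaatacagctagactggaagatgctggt
Il3 promoter (chr11:54267280-54267529, minus strand): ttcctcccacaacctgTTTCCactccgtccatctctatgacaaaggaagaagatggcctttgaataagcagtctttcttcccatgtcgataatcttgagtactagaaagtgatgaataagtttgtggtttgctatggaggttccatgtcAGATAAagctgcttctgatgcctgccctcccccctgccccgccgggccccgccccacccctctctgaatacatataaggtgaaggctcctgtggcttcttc
Ifng promoter (chr10:118440796-118441045, plus strand): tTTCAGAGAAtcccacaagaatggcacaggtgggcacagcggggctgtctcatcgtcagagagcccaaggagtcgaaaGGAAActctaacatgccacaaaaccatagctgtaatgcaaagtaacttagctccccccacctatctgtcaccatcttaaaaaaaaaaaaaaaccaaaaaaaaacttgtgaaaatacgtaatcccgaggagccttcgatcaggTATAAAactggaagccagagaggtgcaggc
Il13 promoter (chr11:53634703-53634952, minus strand): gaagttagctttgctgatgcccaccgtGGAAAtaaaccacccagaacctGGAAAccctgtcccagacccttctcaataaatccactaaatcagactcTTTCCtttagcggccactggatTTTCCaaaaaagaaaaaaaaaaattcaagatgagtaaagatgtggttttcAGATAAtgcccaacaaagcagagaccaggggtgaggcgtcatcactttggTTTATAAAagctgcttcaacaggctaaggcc
Il4 promoter (chr11:53618666-53618915, minus strand): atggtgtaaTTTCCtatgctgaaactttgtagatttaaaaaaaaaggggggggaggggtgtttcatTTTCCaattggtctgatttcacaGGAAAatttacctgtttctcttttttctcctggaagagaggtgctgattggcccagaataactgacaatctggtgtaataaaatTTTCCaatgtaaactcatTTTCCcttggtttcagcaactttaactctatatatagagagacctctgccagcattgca

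The NFAT core was present in all 9 members with an entry in the RefSeq promoter table, against 55.6% of the 32851 windows in that table. It was found 5 times upstream of Il4, 4 times upstream of Il13, 3 times upstream of Il9 and 1 time each upstream of Il3 and Ifng, while 6.39% of all windows held 3 or more. The AP-1 letters were matched only by Il9 among the 9, from position -140 to position -134 relative to its start (6.75% of all windows). TATAAA was matched by Ifng, Il2 and Il13 (12.4% of all windows), where Il13 had overlapping matches on both strands. AGATAA was matched by Il13, Il3 and Csf2 (9.99% of all windows) and the STAT letters by Ifng (7.02%). No member window held the NF-kB or T-box letters (1.43% and 3.33% of all windows). The Csf2 entry starts 232 bases away from the GENCODE M21 start, so its window may not cover the promoter of the annotated transcript. These matches describe letters and show no binding. Il10 has no entry.

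Among the type 1 genes, Ifng differed more than Il2, and both were higher in Nrn1-/- cells. Ifng (ENSMUSG00000055170.3, GRCm38 chromosome 10, 118441046 to 118445892, plus strand), which encodes interferon gamma, the cytokine that activates macrophages, stood at 54.9 FPKM in Nrn1-/- cells against 27.7 FPKM in Nrn1+/- cells. This was 1.98-fold higher on the FPKM scale (counting interval 1.85 to 2.12 for the longest of 2 annotated transcripts, from about 2199 fragments in Nrn1-/- cells and 1443 in Nrn1+/- cells). For the shorter transcript the interval was 1.67 to 2.34. Ifng shares 408 exon bases with Gm49751, a transcript annotated on the same strand, and reads of the pair could not be separated even by strand. No level is listed for Gm49751 in either library. The log2 ratio with 1 FPKM added was 0.96. Its level exceeded that of 90.5% of protein-coding genes in Nrn1-/- cells against 82.6% in Nrn1+/- cells.

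Il2 (ENSMUSG00000027720.7, chromosome 3, 37120523 to 37125959, minus strand), the T cell growth factor, had 62.4 FPKM in Nrn1-/- cells against 46.9 FPKM in Nrn1+/- cells, 1.33-fold higher (interval 1.25 to 1.41, log2 ratio 0.40). The gene ranked second among the 10 in both libraries, above 91.7% of protein-coding genes in Nrn1-/- cells and 89.5% in Nrn1+/- cells. The interval that the files give for Il2 reaches 37063527 and takes in Adad1 on the opposite strand, which stood at 0.0541 FPKM in Nrn1-/- cells against 0.0845 FPKM in Nrn1+/- cells and shares no exon bases with it.

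Among the type 2 genes, with Il9 described beside them, Il9, Il13 and Il5 were higher in Nrn1-/- cells, while the values of Il4 lay within counting error. Il9 (ENSMUSG00000021538.3, chromosome 13, 56479277 to 56482246, minus strand), a growth factor for mast cells and T cells, stood at 8.39 FPKM in Nrn1-/- cells against 2.51 FPKM in Nrn1+/- cells. It had the largest ratio of the 10 genes, 3.34-fold (log2 ratio 1.42), above the ratios of 99.8% of the protein-coding genes compared. With fragments counted on the longest transcript of each gene, it rested on the fewest, about 111 in Nrn1-/- cells against 42 in Nrn1+/- cells, which gives an interval of 2.31 to 4.86.

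Il13 (ENSMUSG00000020383.1, chromosome 11, 53631324 to 53634702, minus strand), an inducer of mucus production and airway reactivity, had 25.4 FPKM in Nrn1-/- cells against 16.3 FPKM in Nrn1+/- cells. This was 1.56-fold higher (interval 1.42 to 1.71), and its log2 ratio of 0.61 lay just past the 1.5-fold line. Il5 (ENSMUSG00000036117.2, chromosome 11, 53720794 to 53725106, plus strand), the growth factor of eosinophils, had 5.41 FPKM in Nrn1-/- cells against 3.53 FPKM in Nrn1+/- cells. Its FPKM ratio of 1.53 (interval 1.29 to 1.82) became a log2 ratio of 0.50 once 1 FPKM was added, just short of that line. Il5 shares 417 exon bases with the antisense gene Gm12214 (3.53 FPKM in Nrn1-/- cells against 2.57 FPKM in Nrn1+/- cells). The counting is not stated to use strand, so reads of the pair cannot be told apart.

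Il4 (ENSMUSG00000000869.11, chromosome 11, 53602982 to 53618669, minus strand), which drives type 2 differentiation and class switching to IgE, had 12.3 FPKM in Nrn1-/- cells against 12.5 FPKM in Nrn1+/- cells. The ratio of 0.984 had an interval of 0.813 to 1.19, which includes 1 but does not show that the levels were equal. Against Il4 within the same library, Il13 stood at 2.06 times its level in Nrn1-/- cells and 1.30 times in Nrn1+/- cells. Ifng stood at 4.45 times the level of Il4 in Nrn1-/- cells and 2.21 times in Nrn1+/- cells, and Il5 at 0.439 times in Nrn1-/- cells and 0.282 times in Nrn1+/- cells. Such ratios within a library do not depend on how the libraries were scaled to each other.

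Il3 and Csf2 are neighbours that encode ligands of receptors with a common beta chain, and Il3 differed more than Csf2. Il3 (ENSMUSG00000018914.5, chromosome 11, 54265303 to 54267277, minus strand), a growth factor of blood progenitors, mast cells and basophils, had 13.1 FPKM in Nrn1-/- cells against 6.20 FPKM in Nrn1+/- cells. It was 2.11-fold higher (interval 1.70 to 2.65, log2 ratio 0.97). Csf2 (ENSMUSG00000018916.5, chromosome 11, 54247271 to 54249667, minus strand), which encodes GM-CSF, had 13.8 FPKM in Nrn1-/- cells against 11.6 FPKM in Nrn1+/- cells, a 1.19-fold ratio (interval 1.02 to 1.39, log2 ratio 0.24). Il3 stood at 0.9496 times the level of Csf2 in Nrn1-/- cells and at 0.536 times in Nrn1+/- cells. Csf2 shares 96 exon bases with the antisense gene Gm12223, listed at 0.0774 FPKM in Nrn1-/- cells against 0 FPKM in Nrn1+/- cells. The files extend Csf2 to 54254495, past the annotated transcript, so its length and fragment number are less sure.

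Il10 stood lower in Nrn1-/- cells beyond counting error, and Il21 did so for its longest annotated transcript but not for its shortest. Il10 (ENSMUSG00000016529.5, chromosome 1, 131019845 to 131024974, plus strand), the gene of the suppressive cytokine, had 68.7 FPKM in Nrn1-/- cells against 94.0 FPKM in Nrn1+/- cells. It was 1.37-fold lower (Nrn1-/- over Nrn1+/- 0.731, interval 0.699 to 0.764, log2 ratio -0.45), within 1.5-fold. It was the highest of the 10 genes in both libraries. It stood at 1.10 times the level of Il2 in Nrn1-/- cells and 2.003 times in Nrn1+/- cells. Ifng stood at 0.799 times the level of Il10 in Nrn1-/- cells and 0.295 times in Nrn1+/- cells.

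Il21 (ENSMUSG00000027718.7, chromosome 3, 37222759 to 37232636, minus strand), a helper cytokine for germinal centre B cells, had 2.31 FPKM in Nrn1-/- cells against 2.98 FPKM in Nrn1+/- cells. The ratio of 0.778 had an interval of 0.665 to 0.907 if all fragments came from its longest transcript, and of 0.481 to 1.27 for its shortest, so the call on counting error depends on the transcript. It shares 539 exon bases with the antisense gene Gm12534 (0.284 FPKM in Nrn1-/- cells against 0.605 FPKM in Nrn1+/- cells). Il21 lies 96.8 kb from Il2, which stood higher in the Nrn1-/- library.

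Counted together, 7 of the 10 genes were higher in Nrn1-/- cells and 3 lower (Il10, Il21 and Il4). The interval of Il4 includes 1, and so does that of Il21 for its shortest transcript. On the scale with 1 FPKM added, 4 of 10 (Il9, Il3, Ifng and Il13) were at least 1.5-fold higher, against 7.01% of the 10695 protein-coding genes and 7.5% of all 12344 genes that averaged 1 FPKM or more. No member was at least 1.5-fold lower, against 3.69% of protein-coding genes and 5.27% of all genes. Il9 was the one member at least 2-fold higher, against 1.21% of protein-coding genes. The median log2 ratio was 0.45 over the members and 0.04 over protein-coding genes, of which 54.3% had a positive ratio. All 10 genes had a mean of at least 1 FPKM.

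**Figure D2:**
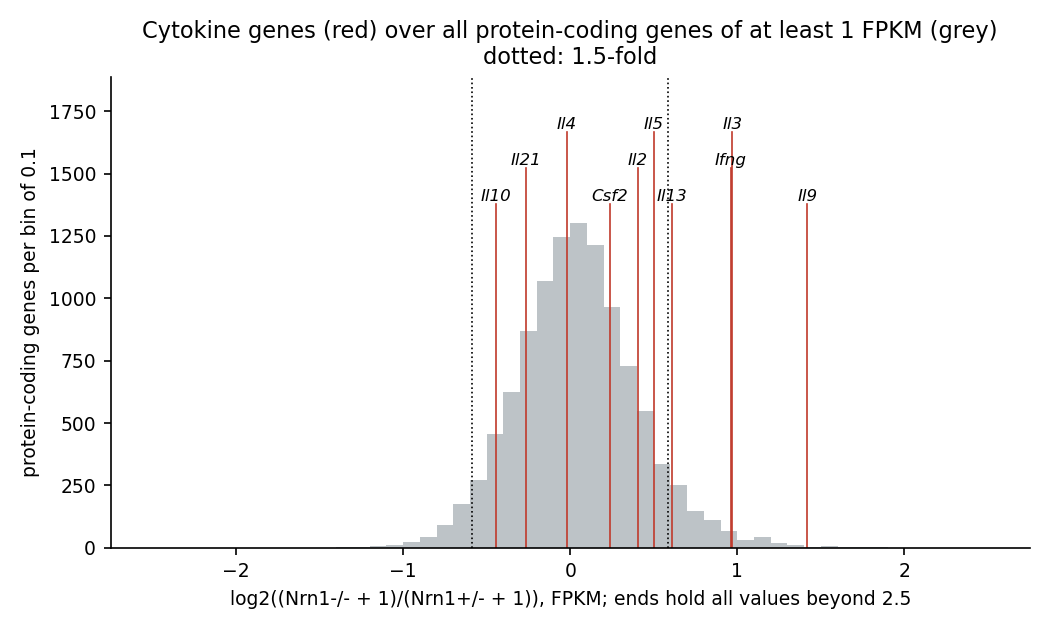
Number of protein-coding genes (vertical axis) by log2 ratio of Nrn1-/- over Nrn1+/- with 1 FPKM added (horizontal axis, grey bars), with each cytokine gene as a red line and 1.5-fold as dotted lines. Il9 (1.42), Il3 (0.97), Ifng (0.96) and Il13 (0.61) lie right of the upper dotted line, and Il10 (-0.45) is the leftmost member.

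The deposited scaling between the libraries is not known. All rows summed to 790935 FPKM in Nrn1-/- cells against 645876 FPKM in Nrn1+/- cells, and protein-coding rows to 647545 FPKM in Nrn1-/- cells against 593035 FPKM in Nrn1+/- cells. Protein-coding rows thus held 81.9% of the total in Nrn1-/- cells against 91.8% in Nrn1+/- cells, so the 2 sums give different scalings. Giving both libraries equal sums over all rows moved the median log2 ratio of all genes by -0.27, and equal sums over protein-coding genes moved it by -0.11. Il9, Il3 and Ifng stayed at least 1.5-fold higher under each of the 4 other scalings. Il13 stayed past 1.5-fold only with centring on the median ratio. Under equal sums over all rows Csf2 had a log2 ratio of -0.04, and Il10, at -0.74, was at least 1.5-fold lower.

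**Figure D3:**
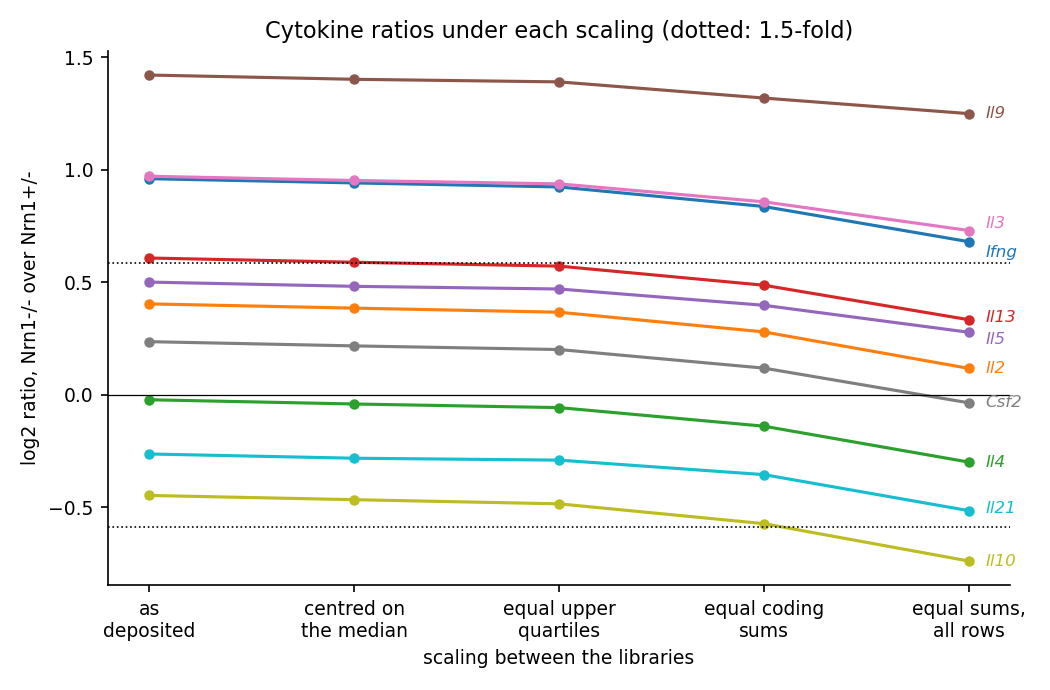
Log2 ratio of Nrn1-/- over Nrn1+/- with 1 FPKM added (vertical axis) for each cytokine gene under 5 scalings between the libraries (horizontal axis), with 1.5-fold as dotted lines. Il9, Il3 and Ifng lie above the upper dotted line throughout, the lines never cross, and the values at the right end run from 1.25 for Il9 to -0.74 for Il10.

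Of the 10 genes, 5 lie in 1 stretch of chromosome 11, where Il4, Il13 and Il5 flank the DNA repair gene Rad50 and are known to share regulatory elements. Taken along this stretch, log2 ratios were -0.02 for Il4, 0.61 for Il13, 0.37 for Rad50 (16.6 FPKM in Nrn1-/- cells against 12.7 FPKM in Nrn1+/- cells) and 0.50 for Il5. Kif3a, a kinesin gene 1.01 kb beyond the end of Il4, stood at 2.60 FPKM in Nrn1-/- cells against 2.62 FPKM in Nrn1+/- cells. Beyond Il5 lay genes with negative ratios. Irf1, a transcription factor of the interferon response 44.9 kb from Il5, had a log2 ratio of -0.29 (242 FPKM in Nrn1-/- cells against 296 FPKM in Nrn1+/- cells). Slc22a5, a carnitine transporter, was 1.64-fold lower (16.7 FPKM in Nrn1-/- cells against 27.5 FPKM in Nrn1+/- cells), and Gm12216 was 1.59-fold lower (22.4 FPKM in Nrn1-/- cells against 35.5 FPKM in Nrn1+/- cells). Csf2 and Il3 start 631 and 649 kb from the start of Il4. Acsl6, the neighbour of Il3, had 1.59 FPKM in Nrn1-/- cells against 0.731 FPKM in Nrn1+/- cells.

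Elsewhere the 2 nearest coding genes of each member gave the following values. Slc25a48 and Fbxl21 beside Il9 stayed under 0.3 FPKM in both libraries. Iltifb beside Ifng had 0.102 FPKM in Nrn1-/- cells against 0.119 FPKM in Nrn1+/- cells, and Il22, the other cytokine gene there, had 1.24 FPKM in Nrn1-/- cells against 2.28 FPKM in Nrn1+/- cells. Mapkapk2, a kinase gene 28.7 kb from Il10, had 114 FPKM in Nrn1-/- cells against 95.6 FPKM in Nrn1+/- cells, and Il19 had 0.0307 FPKM in Nrn1-/- cells against 0.0622 FPKM in Nrn1+/- cells. Il24, a relative of Il10 132 kb away, was the one neighbour at least 1.5-fold higher, at 1.95 FPKM in Nrn1-/- cells against 0.758 FPKM in Nrn1+/- cells. Of Cetn4 and Bbs12, the genes nearest to Il21, the values were for Cetn4 5.53 FPKM in Nrn1-/- cells against 3.78 FPKM in Nrn1+/- cells and for Bbs12 6.39 FPKM in Nrn1-/- cells against 9.72 FPKM in Nrn1+/- cells. Of 4932438A13Rik, 67.5 kb beyond the end of Il2, there were 19.2 FPKM in Nrn1-/- cells against 27.0 FPKM in Nrn1+/- cells. Of 26 neighbours within 250 kb that averaged 1 FPKM or more, 11 were higher and 15 lower, with a median log2 ratio of -0.05. Past 1.5-fold, 1 neighbour was higher and 2 lower, against 7.01% and 3.69% of protein-coding genes. Under equal sums over all rows 7 were higher and 19 lower, with a median of -0.30 against -0.25 over all genes.

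**Figure D4:**
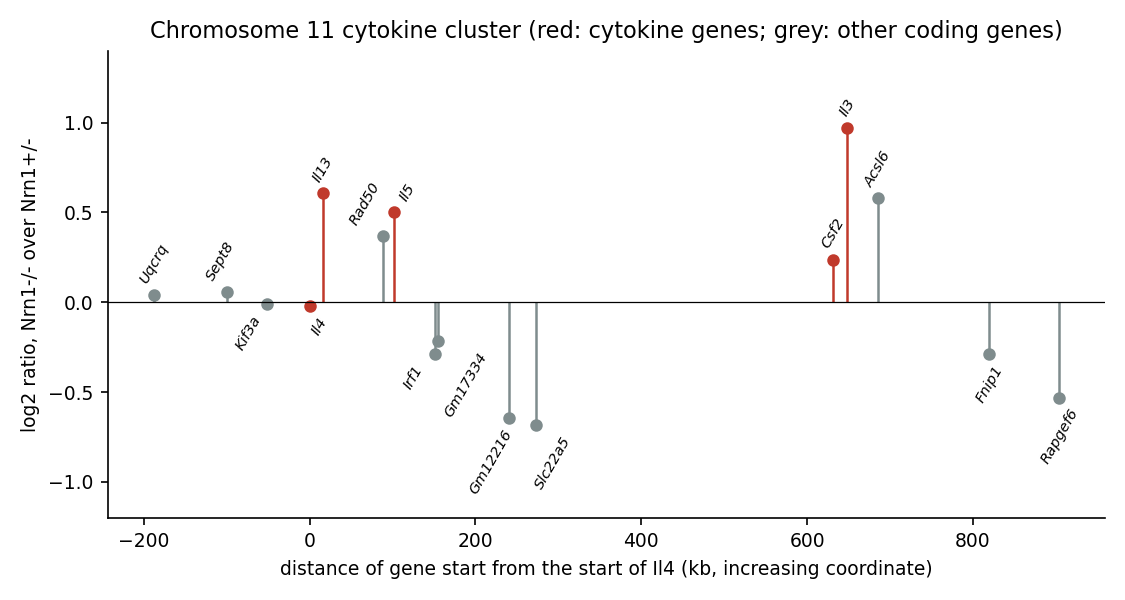
Log2 ratio of Nrn1-/- over Nrn1+/- with 1 FPKM added (vertical axis) for coding genes averaging 1 FPKM or more, by distance of their start from that of Il4 in kb (horizontal axis), with cytokine genes in red and others in grey. Il13 (0.61), Il5 (0.50), Csf2 (0.24) and Il3 (0.97) lie above 0, Il4 (-0.02) sits on it, and Slc22a5 (-0.68) is the lowest point.

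The receptors of these cytokines were mostly lower in Nrn1-/- cells. Of 12 receptor genes averaging 1 FPKM or more, 11 were lower in the Nrn1-/- library and 1 higher. At least 1.5-fold lower were 2 of the 12, against 5.27% of all genes. At least 1.5-fold higher were 0 of the 12, against 7.5% of all genes. Their median log2 ratio was -0.21 against 0.02 over all genes. Under equal sums over all rows all 12 were lower, but there the median over all genes was -0.25 as well, against -0.49 over the receptors. Ifngr1, the ligand-binding chain for interferon gamma, stood at 175 FPKM in Nrn1-/- cells against 323 FPKM in Nrn1+/- cells, 1.85-fold lower. Il10ra, the ligand-binding chain for IL-10, had 20.4 FPKM in Nrn1-/- cells against 31.5 FPKM in Nrn1+/- cells, 1.54-fold lower. Il21r was the gene that stood higher, at 119 FPKM in Nrn1-/- cells against 99.1 FPKM in Nrn1+/- cells. The other 5 receptor genes (Csf2rb, Csf2rb2, Il5ra, Il13ra1 and Il13ra2) lay under 0.3 FPKM in both libraries, so the common beta chain that IL-3, IL-5 and GM-CSF signal through was close to 0.

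Genes known to respond to these cytokines were lower for 16 of 19 (median log2 ratio -0.23 against 0.02 over all genes). Under equal sums over protein-coding genes 17 of 19 were lower, with a median of -0.36 against -0.09 over all genes. The lists overlap, and Il2ra was also counted among the receptors and the Treg markers. In this list 3 genes were at least 1.5-fold lower and 1 higher, against 5.27% and 7.5% of all genes. The 3 at least 1.5-fold lower were Bcl2, a survival gene (25.5 FPKM in Nrn1-/- cells against 43.9 FPKM in Nrn1+/- cells), and the interferon-induced GTPase genes Gbp3 (94.4 FPKM in Nrn1-/- cells against 154 FPKM in Nrn1+/- cells) and Gbp2 (344 FPKM in Nrn1-/- cells against 542 FPKM in Nrn1+/- cells). Irf8, an interferon-inducible transcription factor, was the one at least 1.5-fold higher, at 276 FPKM in Nrn1-/- cells against 147 FPKM in Nrn1+/- cells.

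Transcription factors that act on cytokine genes showed 1 difference past 1.5-fold in each direction among 37 genes. The shares over all genes were 7.5% higher and 5.27% lower. Tbx21, which encodes T-bet, the type 1 factor that activates Ifng, had 66.5 FPKM in Nrn1-/- cells against 32.6 FPKM in Nrn1+/- cells, 2.04-fold higher. Rora, a nuclear receptor, had 4.91 FPKM in Nrn1-/- cells against 10.01 FPKM in Nrn1+/- cells, 2.04-fold lower. Of 37 genes averaging 1 FPKM or more, 17 were higher and 20 lower (median log2 ratio -0.03). Under equal sums over all rows 5 were higher and 32 lower, with a median of -0.31 against -0.25 over all genes. Gata3, the type 2 factor for Il4, Il5 and Il13, stood at 44.3 FPKM in Nrn1-/- cells against 42.7 FPKM in Nrn1+/- cells. Batf, an AP-1 factor that pairs with Irf4, had 212 FPKM in Nrn1-/- cells against 147 FPKM in Nrn1+/- cells, within 1.5-fold. Foxp3, the repressor of Il2, had 195 FPKM in Nrn1-/- cells against 257 FPKM in Nrn1+/- cells.

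The other T cell cytokine genes were divided, with 10 of 19 higher and 9 lower (median log2 ratio 0.12). Their median was -0.01 under equal coding sums and -0.17 under equal sums over all rows. The medians over all genes under those scalings were -0.09 and -0.25. Il24, named above, was the one at least 1.5-fold higher and 2 were at least 1.5-fold lower, against 7.5% and 5.27% of all genes. Il17f (7.02 FPKM in Nrn1-/- cells against 14.3 FPKM in Nrn1+/- cells) and Il17a (19.6 FPKM in Nrn1-/- cells against 33.6 FPKM in Nrn1+/- cells), neutrophil-recruiting cytokines, were at least 1.5-fold lower. Among 20 early genes of T cell activation 11 were higher and 9 lower (median 0.02). This median turned negative under the 3 rescalings, as did the median over all genes. Ccl3, a chemokine gene at 236 FPKM in Nrn1-/- cells against 151 FPKM in Nrn1+/- cells, was the one past 1.5-fold. Over all genes 7.5% were at least 1.5-fold higher.

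**Figure D5:**
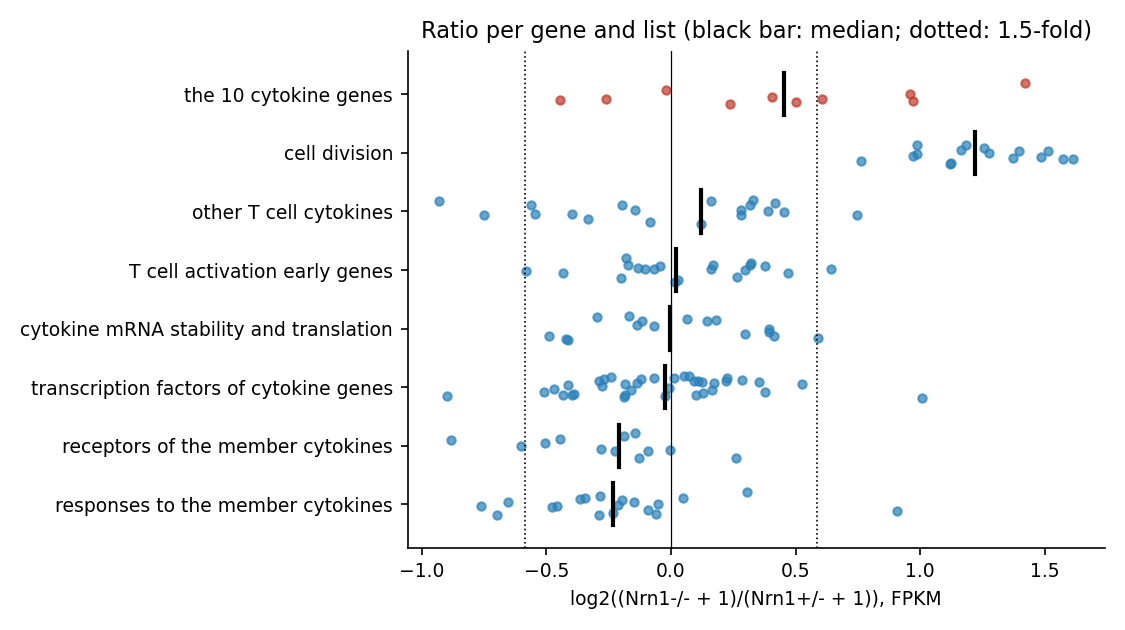
Log2 ratio of Nrn1-/- over Nrn1+/- with 1 FPKM added (horizontal axis) per gene, by gene list (rows), with the cytokine genes in red, other lists in blue, the median as a black bar and 1.5-fold as dotted lines. The median is 0.45 for the 10 cytokine genes and 1.22 for cell division, and lies at -0.21 and -0.23 for the receptor and response lists.

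The AU-rich elements that shorten the life of cytokine messages are shown for the 4 members with 3 or more ATTTA pentamers inside 30 bases of their 3′ UTR. Each line is the first 30-base window with the most pentamers in the GENCODE M21 transcript with the longest 3′ UTR, 5′ to 3′, counted from 1 after the stop codon, with ATTTA in capitals.
Csf2 3′ UTR, bases 230 to 259: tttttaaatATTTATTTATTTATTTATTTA
Il2 3′ UTR, bases 35 to 64: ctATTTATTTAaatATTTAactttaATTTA
Ifng 3′ UTR, bases 69 to 98: aacctATTTAttaatATTTAaaactATTTA
Il9 3′ UTR, bases 5 to 34: agatgctATTTAttctATTTAttgaATTTA

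Pentamers numbered 9 in Csf2 and Il21, 7 in Il2 and Il5, 6 in Ifng and Il10, 3 in Il13 and Il9, 2 in Il4 and 1 in Il3, against a median of 2 over 10574 protein-coding genes. Per length, Il9 had 34.9, Csf2 28.4 and Il4 19.2 per kb, a density reached by 0.0284%, 0.0473% and 0.132% of those genes. These 3′ UTRs are short, at 86 bases for Il9, 317 for Csf2 and 104 for Il4, against a median of 1328. By number alone, 38.9% of those genes held at least as many pentamers as Il9. Il9, Csf2 and Il4 were thus dense in pentamers for their length, with FPKM ratios of 3.34, 1.19 and 0.984. Of 16 genes for proteins that act on such messages, 8 were higher and 8 lower (median log2 ratio -0.003). Under equal sums over all rows 5 were higher and 11 lower, with a median of -0.29 against -0.25 over all genes. Pcbp1, an RNA-binding protein gene, was the one past 1.5-fold upward, against 7.5% of all genes. Its level was 318 FPKM in Nrn1-/- cells against 211 FPKM in Nrn1+/- cells. Pcbp1 did not pass 1.5-fold with a pseudocount of 5 FPKM, with centring or under any of the 3 rescalings, and Ccl3 did not pass it under equal coding sums or equal sums over all rows. Zfp36, whose product binds AU-rich elements and promotes decay, had 48.7 FPKM in Nrn1-/- cells against 60.1 FPKM in Nrn1+/- cells.

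Other measures differed between the libraries beside the cytokine genes, and their part in the differences was not tested. All 16 cell division genes were past 1.5-fold upward in Nrn1-/- cells (median log2 ratio 1.22), against 7.5% of all genes. Ccnb1, a mitotic cyclin, led them at 56.2 FPKM in Nrn1-/- cells against 17.7 FPKM in Nrn1+/- cells. Cdc20, an activator of mitotic exit, had 85.6 FPKM in Nrn1-/- cells against 28.1 FPKM in Nrn1+/- cells, and the mitotic kinase gene Plk1 43.3 FPKM in Nrn1-/- cells against 14.5 FPKM in Nrn1+/- cells. Cdk1, the kinase that mitotic cyclins activate, had 146 FPKM in Nrn1-/- cells against 51.6 FPKM in Nrn1+/- cells. Under equal sums over all rows 15 of the 16 genes passed 1.5-fold upward, against 3.27% of all genes. The 6 Treg markers were all lower, with a summed level of 1821 FPKM in Nrn1-/- cells against 2202 FPKM in Nrn1+/- cells. All 6 lay within 1.5-fold. General T cell markers (Cd3e, Cd3d, Cd3g, Cd4, Trac and Cd5) were lower for 5 of 6 and higher for 1. They summed to 1555 FPKM in Nrn1-/- cells against 1745 FPKM in Nrn1+/- cells. Summed marker levels of other cells that could make these cytokines follow. Natural killer cell and group 1 innate lymphoid markers summed to 5.35 FPKM in Nrn1-/- cells against 5.25 FPKM in Nrn1+/- cells, CD8 T cell markers to 3.93 FPKM in Nrn1-/- cells against 4.92 FPKM in Nrn1+/- cells, and gamma delta T cell markers to 14.8 FPKM in Nrn1-/- cells against 16.5 FPKM in Nrn1+/- cells. Eosinophil and neutrophil markers summed to 0.566 FPKM in Nrn1-/- cells against 0.719 FPKM in Nrn1+/- cells, macrophage and monocyte markers to 0.708 FPKM in Nrn1-/- cells against 0.850 FPKM in Nrn1+/- cells, and dendritic cell markers to 2.38 FPKM in Nrn1-/- cells against 2.96 FPKM in Nrn1+/- cells. Of B cell genes, Ighm, the constant region of IgM, had 180 FPKM in Nrn1-/- cells against 229 FPKM in Nrn1+/- cells, and Cd79b, a chain of the B cell receptor, had 5.14 FPKM in Nrn1-/- cells against 4.85 FPKM in Nrn1+/- cells.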

How the data were processed

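The deposited values are FPKM per gene, computed by the authors. The unit was inferred from the values and the tools: the submitters' processing notes list Cuffnorm, Cuffdiff, TopHat and FastQC and the builds mm10 and GRCm38. Per the labels' protocols, poly(A) RNA went into randomly primed NEBNext Ultra libraries. Scaling between libraries, the annotation and the strand setting are not stated in any source used here.

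Symbols with several rows were summed (82 symbols). Positions, transcript lengths and 3′ UTRs came from GENCODE M21 (GRCm38), matched by identifier, and 46000 of 46511 identifiers matched. Of the members, 7 have 1 annotated transcript. Promoter windows came from RefSeq (GRCm38.p6), with entries for 9 of 10 members. Where a gene had several entries, the one nearest the M21 start was used.

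The ratio was log2((Nrn1-/- + 1)/(Nrn1+/- + 1)), which understates differences of low genes. Thresholds of 1.5-fold and 2-fold apply to it, while folds quoted from FPKM carry no pseudocount. The 12344 genes averaging 1 FPKM or more were compared. Depth was read from genes with a single transcript of at least 800 bases: after subtracting 205 and 220 bases, 96.5% of 1879 genes (Nrn1-/-) and 96.1% of 1869 genes (Nrn1+/-) lay within 0.1 of whole multiples of 1 fragment, where 20% is the share by chance. Provided that no scaling between libraries was applied, the Nrn1+/- library held 1.32 times as many fragments. Otherwise this is a ratio of scaling factors. Intervals are exact Poisson for levels and exact binomial for folds, at 95%, for counting error only. No molecular identifiers are described in the labels, so fragments are not independent molecules. The calculations were tested on simulated data.

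Named beside all members were up to 4 genes per direction past 1.5-fold in each list, the 2 nearest neighbours of a member and any neighbour past 1.5-fold. Gata3, Batf, Foxp3, Zfp36, Il21r, Ighm, Cd79b, Eomes, Ncr1 and the 5 low receptor genes were named after their values were seen. Members and lists were chosen with earlier results of these data known. Alternatives were 2 other pseudocounts, 2 other filters, 3 rescalings and centring. Python 3.11.15, numpy 2.4.6, pandas 2.3.3 and scipy 1.17.1 were used.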

Additional observations from a re-analysis of the deposited data

How the results depend on the processing

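With 1 library per genotype no library could be left out. No paired analysis was possible because each genotype has 1 library. The count of members at least 1.5-fold higher was 4 as reported, 5 with a pseudocount of 0.1 FPKM (Il5 joined) and 3 with a pseudocount of 5 FPKM or with any of the 3 rescalings (Il13 left). Rescaling to a sum of 1000000 put 1 member, Il10, at least 1.5-fold lower and brought the median log2 ratio of the members to 0.198, against 0.45 as reported; there 2.57% of protein-coding genes were at least 1.5-fold higher and 15.3% lower. The median ranged from 0.33 to 0.51 under the other alternatives. Moves of single members were compared with the distance from the middle of the member's counting interval to its end, on the log2 scale. Of 78 values of single members under 8 alternatives, 67 moved by less than this distance and 11 by more. Of the 11, 7 came under rescaling to a sum of 1000000 and 3 under equal coding sums. The eleventh was Il9, whose log2 ratio was 0.83 with a pseudocount of 5 FPKM. No member at least 1.5-fold higher changed sign. A filter at 5 FPKM removed Il5 and Il21. Depth limits Il9, with about 111 fragments in Nrn1-/- cells and 42 in Nrn1+/- cells, and Il21, with about 30 in Nrn1-/- cells and 48 in Nrn1+/- cells if its shortest transcript is assumed.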
